A study of Homo sapiens with 6 samples.

Results

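Long intergenic non-coding RNA genes that carry a LINC symbol were followed in the chronic myeloid leukaemia line K562 and in K562 cells labelled ACK KO. Of 19498 genes with a value, 414 had a symbol made of LINC and a number, and the 171 described here were chosen by a mean normalised count of 50 or more over the 6 libraries. A normalised count is the deposited count after division by a factor for its library. The choice used the mean over all libraries and not the difference between the groups. A gene near silence in 1 group could still enter through the other group. That was so for 30 of the 171 genes, whose mean was under 50 in WT (15 genes) or in the KO-labelled libraries (15 genes). The 3 genes just above the limit, LINC01772, LINC00926 and LINC01300, had means of 50.4, 50.6 and 50.9. Just below it lay LINC01088 with 48.8, LINC00896 with 48.7 and LINC01237 with 48.4.

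Long intergenic non-coding RNAs are made by RNA polymerase II, are mostly capped, spliced and polyadenylated, and are not known to encode a protein. A LINC number is given to such a gene when no function or close neighbour supplies a name, so the number says nothing of what the RNA does. As a class they are less abundant and more restricted to particular cell types than messenger RNAs. Many stay in the nucleus, and some act on genes near their own site or come from transcribed enhancers. The libraries used here hold polyadenylated RNA, so transcripts without a poly(A) tail are expected to be missed.

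K562 is an erythroleukaemic human line with the BCR::ABL1 fusion kinase. The 3 WT libraries are of unmodified K562 cells, and the 3 libraries of the other group are of K562 cells with a knockout of ACK, a Cdc42-binding tyrosine kinase encoded by TNK2. Both groups were grown in RPMI-40 medium with 10% FBS, no treatment is stated, and libraries came from capture of polyadenylated RNA (input 500 ng, RIN 10). The series title gives STAT5-driven transcription as the subject, and the design text gives WT against ACK KO as the comparison. The labels name neither a clone nor the kind of edit, so an effect of the genotype and a difference between 2 cell lines cannot be told apart. The labels call the replicates biological without saying how they were made, and the tests rest on the spread between them. Normalised counts summed to between 43478033 and 53301879 per library, and the number of reads behind them is unknown.

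TNK2 had values of 829.7, 613 and 642 in WT replicates 1 to 3 and of 741, 506 and 598 in the other group. The values of the groups overlapped, with a log2 difference of -0.18 (95% interval -0.68 to 0.32), so its mRNA level does not check the labels, and the second group is called KO-labelled. Of 9 erythroid and K562 markers, all were present, from a WT mean of 1315 for HBE1 to 38866 for TFRC. HBE1, an embryonic globin gene, rose to 12385 in the KO-labelled libraries (adjusted p 7.84e-04, limma). Among 9 markers of other cells, MS4A1 and KRT5 have no value in the file and CDH1, COL3A1 and PDGFRB had means under 10 in both groups. EPCAM was present at means of 4791 in WT and 4923 in the other group, CD3D at 1067 and 1241, and CD3E at 43.7 and 28.0. COL1A1 had means of 16.3 and 133 (adjusted p 0.0334, limma). The part of the HBE1 and COL1A1 differences in the LINC results was not tested.

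The annotation was compared with the working name. GENCODE 29 holds 170 of the 171 genes, on 23 chromosomes. Of these, 132 are of the lincRNA type, 18 are processed transcripts, 8 are antisense, 8 are pseudogenes with transcripts, 2 share a bidirectional promoter, 1 is sense-overlapping and 1, LINC02693, is listed as protein-coding. The body of 152 genes overlapped no annotated protein-coding gene, and 18 overlapped at least 1, on the same strand for 11 and on the opposite strand for 8. The library kit keeps the strand, but whether counting used it is not stated. LINC00174 and TPST1, which overlap on opposite strands, and the other overlapping genes are therefore uncertain. So are LINC01029, LINC02700 and LINC02240, each of which overlaps another non-coding gene on its own strand. LINC00882, LINC00534, LINC01036, LINC00115 and LINC01002 each overlap an annotated pseudogene or more on their own strand. On the opposite strand, LINC01287 and LINC00534 overlap a lincRNA gene, LINC01001 an antisense gene, and LINC02505 and LINC01772 a pseudogene. The values of all these genes are uncertain for the same reason. The symbols LINC03021 and LINC01238 each belong to a second Ensembl gene with a mean under 50, which is counted among the genes below the limit.

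Levels among the 171 genes spanned from 50.4 to 4694 as means over 6 libraries, with a median of 255 and quartiles of 99.1 and 642. A mean of 1000 or more was reached by 26 genes and 76 had a mean under 200. On the scale of normalised count per kilobase of annotated exon, the median was 100.1 for the LINC genes and 225 for protein-coding genes of the file. The coding genes were taken at any level, without the limit of 50 set for the LINC genes. LINC01029 had the highest mean, 4694, where the WT replicates stood at 2754, 9189 and 8394 and the KO-labelled ones at 1676, 3000.2 and 3149. Its groups overlapped because replicate 1 was the lowest library in both. Its log2 difference of -1.25 had an adjusted p of 0.184, and 0.00108 with the replicate number as a block (limma).

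The other abundant genes differed little. LINC02864 had means of 3042 ± 632 and 4051 ± 474 (SD, n = 3 each; WT first), LINC00342 of 3165 ± 1352 and 3488 ± 1453, and LINC01002 of 2992 ± 565 and 3600.3 ± 769. LINC00174 had means of 2207 ± 210 and 2852 ± 408, LINC00958 of 2699 ± 432 and 2329 ± 316, and LINC01001 of 2004 ± 288 and 2491 ± 401. None of these 6 passed the test, with adjusted p-values from 0.205 to 0.864 (limma). With the block LINC02864 (0.00612), LINC01002 (0.0175), LINC00174 (0.00914) and LINC01001 (0.0121) passed, while LINC00342 (0.147) and LINC00958 (0.0662) did not. LINC01694, also among the 8 most abundant, fell and is described with the falls. Per kilobase of exon the order was another, with LINC01610 first at 3096 and LINC02772 next at 2338.

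In the KO-labelled libraries 13 LINC genes rose, 10 fell and 148 did not pass an adjusted p of 0.05 (limma on log2(value + 1), Benjamini-Hochberg over all 16658 tested genes). These are bulk libraries, so a lower level in every cell and fewer cells with the RNA cannot be told apart. The called share was 13.5%, beside 10.3% of all tested genes. By direction, 5.37% of all tested genes rose and 4.96% fell. At least 2-fold differences were called for 19 LINC genes, 10 higher and 9 lower, beside 7.31% of all tested genes. All 171 genes passed the filter on low values, and 11 of the 23 calls were of genes with a mean under 50 in 1 group. The 13.5% includes these 11 calls. Among the 141 genes with a mean of at least 50 in both groups, 12 passed, of which 6 rose and 6 fell. The share of all tested genes under that same limit was not computed. Of all tested genes with a mean of 50 or more over the 6 libraries, 10.3% passed. The median log2 difference of the 171 genes was 0.10, beside -0.02 for all tested genes, and the middle of the distribution ran from -0.49 to 0.49 between quartiles, beside -0.29 to 0.34. The count of 23 was 13 without WT replicate 3, 14 without KO-labelled replicate 2 or 3, and 15 without WT replicate 2.

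**Figure D1:**
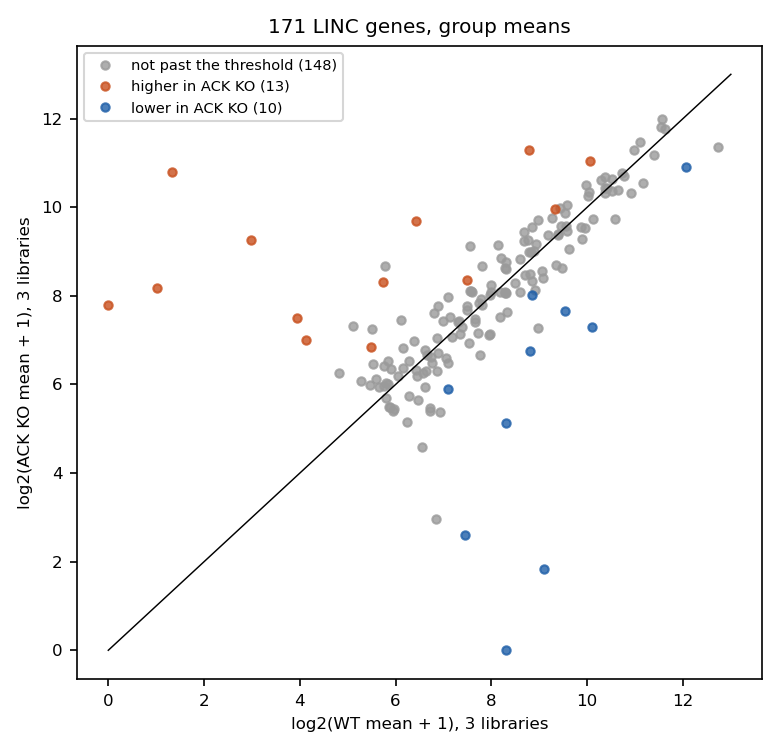
Each point is 1 of the 171 LINC genes, placed by its mean over the 3 WT libraries (horizontal) and over the 3 KO-labelled libraries (vertical), both as log2(mean normalised count + 1), with the diagonal marking equal means. The 148 grey genes that did not pass lie around the diagonal, and 4 called genes at the left and 3 at the bottom stand apart, with 1 grey gene, LINC02525, also low in the KO-labelled group.

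Presence in 1 group and near absence in the other was seen in both directions. Of the 142 LINC genes with a mean of 100 or more in either group, 4 had every WT library under 10 and 3 had every KO-labelled library under 10. Among all 12510 genes that reached this mean the shares were 0.312% and 0.400%, or 0.711% in all. These shares are not matched for level. The median mean was 255 for the 171 LINC genes and 1303 for all tested genes with a mean of 50 or more. A share for genes of like level was not computed. The 4 genes were LINC01287, LINC02404, LINC02432 and LINC01608, and the 3 genes were LINC02458, LINC00882 and LINC00261.

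LINC01287, on chromosome 7 (153355365 to 153413981, minus strand, GRCh38), had WT values of 2.35, 2.19 and 0 and KO-labelled values of 2434, 1414 and 1463. Every KO-labelled library was thus far above every WT library. The log2 difference was 9.60 (SE 0.54, adjusted p 1.65e-04, limma), and 8.07 with a pseudocount of 5, since the WT values lie near the pseudocount of 1. LINC02404, on chromosome 12 (91877391 to 91880655, plus strand), had no signal in WT, where all 3 libraries are listed at 0, and values of 241, 199 and 218 in the KO-labelled ones (adjusted p 5.72e-05, limma). LINC02432, on chromosome 4 (141319450 to 141332618), was at 3.11, 0 and 0 in WT and at 355, 217 and 294 in the other group. Its log2 difference of 7.47 was 5.62 with a pseudocount of 5 and 8.15 without WT replicate 1. That of LINC02404 was 7.78, and 5.48 with a pseudocount of 5.

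LINC01608, on chromosome 8, rose from 6.88 ± 2.68 to 611 ± 133 (SD, n = 3 each), a log2 difference of 6.31 that was 5.70 with a pseudocount of 5. The other 6 of the 10 largest rises started from WT means of 14.3 or more. LINC02240, on chromosome 5, had WT values of 15.5, 17.5 and 10.1 and KO-labelled values of 197, 178 and 164. The groups were far apart and each was narrow. LINC00534 rose from 84.4 ± 38.4 to 819 ± 239, LINC02700 from 16.6 ± 3.23 to 127 ± 38.1 and LINC02505 from 52.3 ± 22.5 to 315 ± 124. LINC02772 went from 442 ± 397 to 2500 ± 983 and LINC01097 from 43.6 ± 3.40 to 114 ± 13.1.

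LINC02772 had 898, 177 and 251 in WT and 3618, 2112 and 1769 in the KO-labelled group, so that replicate 1 was highest in each. Its log2 difference was 2.80 (SE 0.61), and 3.49 without WT replicate 1. The adjusted p-values of the 10 rises ran from 5.72e-05 to 0.0326 (limma). Those of LINC02772 and LINC01097 passed 0.05 no longer in 5 of the 6 fits without 1 library, all but the fit without WT replicate 1, and reached 0.128 and 0.103 (limma). LINC02505 reached 0.0527 (limma) and was lost in the fits without replicate 3 of WT or of the KO-labelled group. The 3 remaining rises lie outside the 10 largest and were named after their values were seen: LINC00205 with a log2 difference of 0.95, LINC01410 with 0.85 and LINC00689 with 0.64. Their adjusted p-values (limma) were 0.0224, 0.0449 and 0.0413. LINC00205 was lost without WT replicate 2 or 3 and without KO-labelled replicate 2 or 3, and the other two were lost in each of the 6 fits without 1 library, with adjusted p-values up to 0.1896 (limma).

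With the pseudocount of 1 the deepest fall was that of LINC02458, a gene of chromosome 12 (89010681 to 89019679, minus strand). It had WT values of 547, 146 and 257 and was listed at 0 in the 3 KO-labelled libraries (adjusted p 3.01e-04, limma). LINC00882, on chromosome 3 (106836811 to 107240641, minus strand), had 744, 442 and 446 in WT and 3.62, 2.92 and 1.21 in the KO-labelled group. Its log2 difference was -7.27 (SE 0.41), and -6.15 with a pseudocount of 5. That of LINC02458 was -8.10, and -5.81 with a pseudocount of 5, so their order depends on the pseudocount. LINC00261, known as a neighbour and regulator of the endoderm factor gene FOXA2, fell from 317, 72.8 and 129 to 2.52, 3.03 and 9.69. The groups did not overlap, but the WT values spread over a wide range. It overlaps an annotated protein-coding gene model on its own strand, so its value is uncertain. Its log2 difference was -4.76, and -3.96 with a pseudocount of 5.

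LINC00520, at which an endothelial enhancer RNA is known, fell from 1098 ± 305 to 156 ± 74.1 (SD, n = 3 each), a log2 difference of -2.87 (SE 0.37, adjusted p 0.00459, limma). LINC00648 went from 316 ± 161 to 33.9 ± 19.7, LINC02982 from 444 ± 23.8 to 107 ± 37.3 and LINC01426, which lies beside the haematopoietic factor gene RUNX1, from 745 ± 98.9 to 202 ± 48.2. LINC00115 fell from 136 ± 5.85 to 58.9 ± 6.40, LINC01694 from 4309 ± 1353 to 1928 ± 85.7 and LINC01036 from 457 ± 53.3 to 259 ± 13.6. The 10 adjusted p-values ran from 1.65e-04 to 0.0381 (limma). LINC00115, LINC01694 and LINC01036 were lost in 5 of the 6 fits without 1 library, all but that without WT replicate 1, and reached 0.0947, 0.151 and 0.1495 (limma). LINC00648 reached 0.0729 (limma) and was lost in the fits that left out WT replicate 3 or KO-labelled replicate 2. LINC00115 lies within LINC01128 on the opposite strand, so its value is uncertain. LINC01128 had a log2 difference of -0.05 (adjusted p 0.945, limma).

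**Figure D2:**
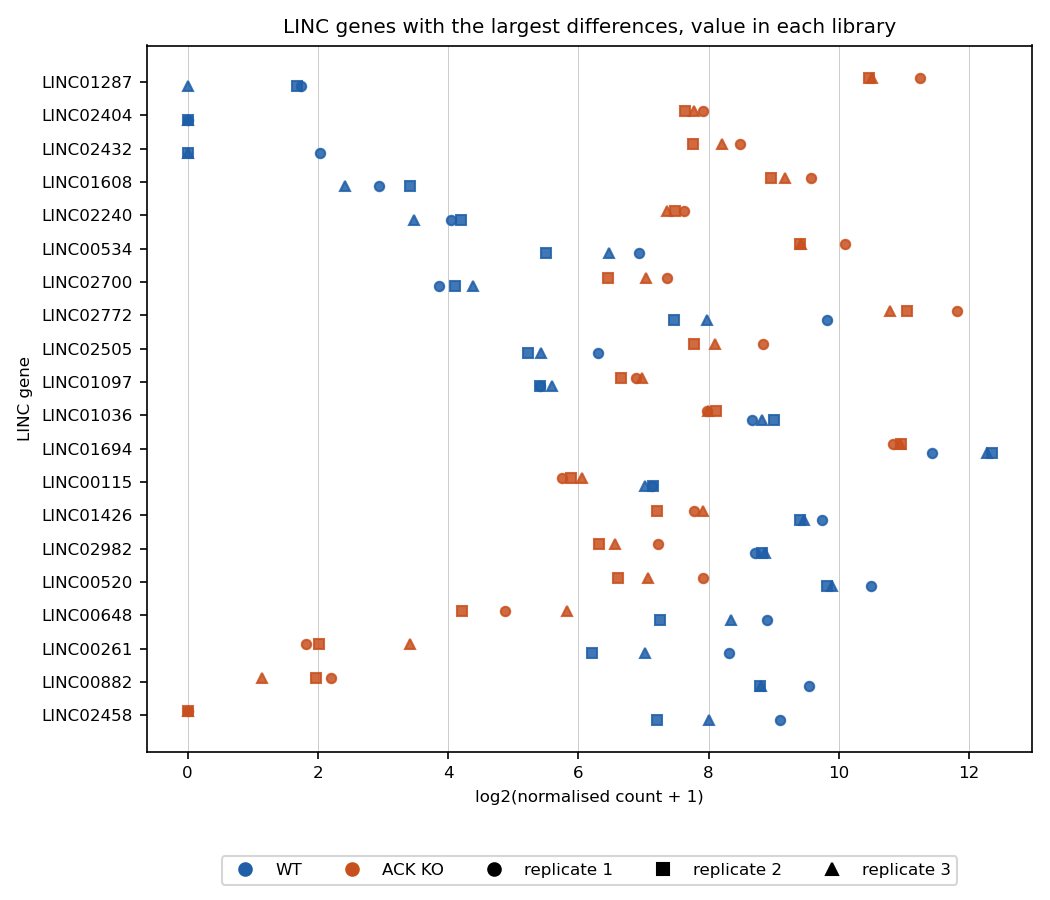
Values of the 10 largest rises and 10 largest falls in each library as log2(normalised count + 1), WT in blue and ACK KO in orange, with a marker shape for each replicate number. For each of the 20 genes the 3 points of a group lie on 1 side of the 3 points of the other, and replicate 1 is drawn as circles.

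The start regions of genes that went from present to nearly absent or the reverse are shown because they carry the calls with the widest gaps, and that of LINC02982 because it holds most motif matches among them. RefSeq (GRCh38.p14) gave a region of 300 bases, from 250 before to 50 after the start, for 97 of the 171 genes and for 12 of the 23 called. Printed are 5 of the called genes with a RefSeq start within 300 bases of the GENCODE 29 start, read on the strand of the gene. For LINC02404 the starts lie 263 bases apart, and its printed region ends before the GENCODE 29 start. For the other printed genes the starts lie 0 to 32 bases apart. Capitals mark AGATAA, the core of the GATA factor motif, and TATAAA, the TATA box, on either strand. The regions lie at chr12:91876878-91877177 (plus strand, LINC02404), chr12:89019643-89019942 (minus, LINC02458), chr3:107240589-107240888 (minus, LINC00882), chr20:22578593-22578892 (minus, LINC00261) and chr5:997291-997590 (minus, LINC02982).
LINC02404: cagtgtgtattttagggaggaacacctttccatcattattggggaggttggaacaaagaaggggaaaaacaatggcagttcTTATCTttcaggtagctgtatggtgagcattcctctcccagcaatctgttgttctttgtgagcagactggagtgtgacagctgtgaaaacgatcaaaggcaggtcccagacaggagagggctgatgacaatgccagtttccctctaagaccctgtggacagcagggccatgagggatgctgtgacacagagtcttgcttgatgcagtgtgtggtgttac
LINC02458: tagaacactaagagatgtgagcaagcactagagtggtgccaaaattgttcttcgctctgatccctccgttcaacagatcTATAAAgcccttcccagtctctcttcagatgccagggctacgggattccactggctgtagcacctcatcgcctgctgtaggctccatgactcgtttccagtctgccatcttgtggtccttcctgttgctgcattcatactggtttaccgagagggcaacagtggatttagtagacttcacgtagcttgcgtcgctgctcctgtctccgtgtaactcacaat
LINC00882: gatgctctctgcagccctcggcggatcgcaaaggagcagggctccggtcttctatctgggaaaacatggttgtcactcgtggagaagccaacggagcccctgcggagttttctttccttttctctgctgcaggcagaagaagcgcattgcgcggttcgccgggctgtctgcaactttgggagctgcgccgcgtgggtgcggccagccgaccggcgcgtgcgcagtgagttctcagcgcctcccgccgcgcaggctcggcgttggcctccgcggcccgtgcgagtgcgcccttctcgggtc
LINC00261: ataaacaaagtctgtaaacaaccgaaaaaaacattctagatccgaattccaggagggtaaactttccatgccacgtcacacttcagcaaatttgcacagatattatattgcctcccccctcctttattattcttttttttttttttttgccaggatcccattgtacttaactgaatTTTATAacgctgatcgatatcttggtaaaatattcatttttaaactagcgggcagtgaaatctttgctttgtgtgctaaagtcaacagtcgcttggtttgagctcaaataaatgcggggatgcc
LINC02982: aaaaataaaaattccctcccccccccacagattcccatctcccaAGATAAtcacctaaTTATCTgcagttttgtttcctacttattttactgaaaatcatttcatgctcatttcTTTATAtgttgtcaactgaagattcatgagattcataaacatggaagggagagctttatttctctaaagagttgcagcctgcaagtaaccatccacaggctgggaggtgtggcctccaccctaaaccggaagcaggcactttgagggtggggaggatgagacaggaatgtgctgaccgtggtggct

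The 5 regions differ widely in composition. That of LINC00882 held 33 CG pairs and 66% G and C, that of LINC02458 10 pairs, that of LINC00261 8, that of LINC02982 2 and that of LINC02404 1. AGATAA was found 1 time in LINC02404 and 2 times in LINC02982, and TATAAA 1 time each in LINC02458, LINC00261 and LINC02982. On either strand AGATAA was present in 10.3% of all 35116 RefSeq start regions and in 14.8% of the 108 regions of LINC genes described here. For TATAAA the shares were 11.5% and 14.8%. Among the 12 regions of called genes each of these motifs was in 3. The STAT motif TTCNNNGAA was in 7.66% of all regions, in 6 of the 108 and in 0 of the 12 of called genes. These are matches of letters in a window and show no binding.

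Genes that did not pass fall into several kinds. A log2 difference of 1 or more in size without a call was seen for 18 genes, and all 18 passed with the replicate number as a block, 9 higher and 9 lower. The same count over all tested genes was not made, so whether this is particular to LINC genes is not known. Of all tested genes, 39.7% passed with the block. The 95% interval of 59 genes without a call lay within 2-fold in either direction, so for these a larger difference is outside the interval. The narrowest were LINC00667, with means of 1705 ± 71.3 and 1742 ± 61.1 (SD, n = 3 each) and a 95% interval of the log2 difference from -0.25 to 0.31, and LINC01234, with 1737 ± 105 and 1666 ± 104 and an interval from -0.36 to 0.24. LINC01123 had an interval from -0.48 to 0.22. These 3 were named after their values were seen.

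No overlap between the 3 WT and the 3 KO-labelled libraries was found for 68 LINC genes (39.8%), 37 higher and 31 lower, beside 30.0% of all tested genes. The 23 called genes were among the 68. In each of the 3 replicate numbers the KO-labelled value lay above the WT value for 72 genes (42.1%) and below it for 59 (34.5%), beside 31.8% and 34.0% of all tested genes. With the replicate number as a block 82 LINC genes passed (48.0%), 43 higher and 39 lower. The share was 39.7% for all tested genes and 43.6% for those with a mean of 50 or more. The 23 genes called without the block were all among the 82. The 59 genes called only with the block had a median fold of 1.62, beside 7.14 for the 23. LINC02525, the largest of these, had WT values of 244, 57.7 and 39.0 and KO-labelled values of 17.6, 0 and 2.90. Its highest KO-labelled value and its highest WT value were both in replicate 1. The adjusted p was 0.06397 without and 9.81e-04 with the block (limma). LINC00656, like LINC02525 named after its values were seen, had 106, 28.5 and 27.4 in WT and 887, 118 and 214 in the KO-labelled group, with adjusted p-values of 0.105 and 3.23e-04 (limma). Leaving out replicate 1 of both genotypes gave 53 calls (31.0%), 29 higher and 24 lower, beside 28.4% of all tested genes in the same fit.

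Replicate 1 stood above replicates 2 and 3 for most of these RNAs in both genotypes. It was the highest library of both groups for 97 of the 171 LINC genes (56.7%), beside 34.4% of all tested genes and 32.7% of tested protein-coding genes. It was the lowest of both for 19 (11.1%), beside 33.3% of all tested genes and 37.97% of protein-coding ones. The median of replicate 1 minus the mean of the other two was 0.42 in WT and 0.40 in the KO-labelled group on the log2 scale, where all tested genes had 0.03 and 0.02. The same order was seen for the 126 tested LINC genes with a mean under 50, with replicate 1 highest in both groups for 63 and lowest for 12, and for 504 tested antisense genes, with 215 and 79. Of 33 tested well-known long non-coding RNAs, 8 were highest and 13 lowest there.

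The genes with the widest gaps between replicate 1 and the others changed several-fold between libraries of 1 group. LINC02156 had WT values of 297, 18.4 and 13.9, and the KO-labelled values were 448, 63.9 and 70.8. LINC00173 had 338, 50.2 and 78.8 against 361, 32.8 and 114, with nearly equal group levels and a log2 difference of 0.005. LINC01300 and LINC02212 showed the same order, the latter with 222, 32.9 and 22.4 in WT and 65.1, 2.93 and 1.72 in the other group. At the other end stood LINC01029, given above, and LINC01311, with 409, 899 and 809 against 262, 515 and 405. These genes were named after their values were seen. Averaged over the genotypes, replicate 1 lay at least 1 log2 unit above the others for 31 LINC genes and as far below for 1. The same count over all tested genes was not made, so whether it is particular to LINC genes is not known. The labels do not say how the replicates differ, and what set replicate 1 apart was not tested. Across the 171 genes the gap in WT and that in the KO-labelled group had r = 0.697, which is a description over genes of the same 6 libraries. Median SD on the log2(value + 1) scale was 0.392 in WT and 0.338 in the KO-labelled group for the LINC genes, and 0.323 and 0.288 for all tested genes.

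**Figure D3:**
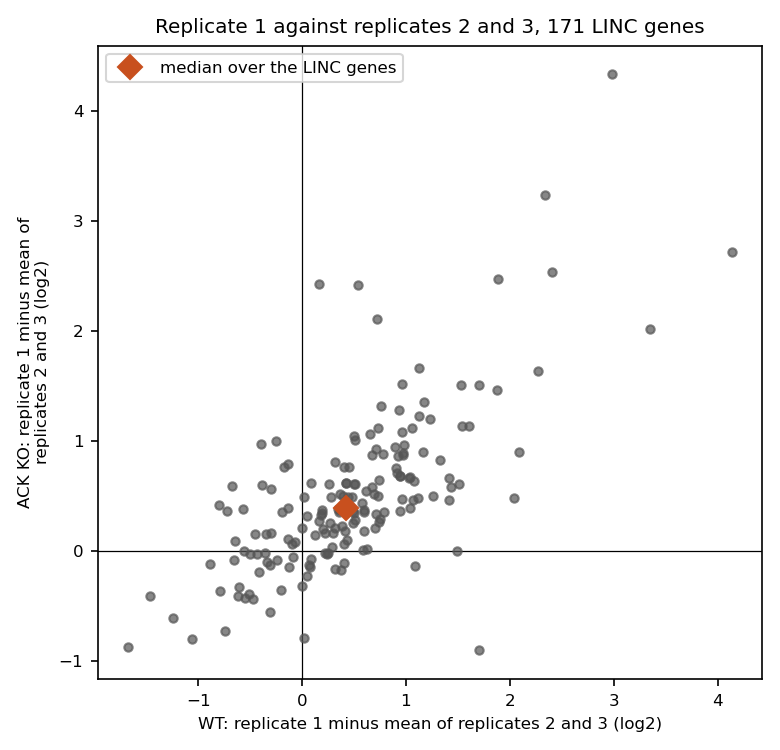
Each point is 1 of the 171 LINC genes, placed by replicate 1 minus the mean of replicates 2 and 3 in WT (horizontal) and in the KO-labelled libraries (vertical), in log2 units of normalised count + 1. Most points lie above 0 on both axes, and the diamond marks the medians of 0.42 and 0.40.

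The neighbours of these genes were then compared. The nearest tested protein-coding gene lay at a median distance of 43.4 kb, and its log2 difference had the same sign as that of the LINC gene for 104 of 170 genes (61.2%). Among 12756 protein-coding genes the nearest other coding gene, at a median of 2.42 kb, had the same sign for 60.3%. The 43 LINC genes within 10 kb of a coding gene shared its sign in 24 cases, and the 57 beyond 100 kb in 34. The 23 called LINC genes shared it in 16 cases (69.6%), at a median distance of 84.8 kb. The share for called coding genes was not computed. Pearson's r across the 170 pairs was 0.128, and 0.234 across the coding pairs, both as descriptions. These 2 sets differ in distance. For the 43 LINC genes within 10 kb, at a median of 1.135 kb, r was 0.373, and for the 57 beyond 100 kb it was 0.065. No test between the sets was made. Among the pairs, 22 LINC genes share a nearest coding gene with another.

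Some called genes stood beside coding genes that changed the same way. On either side of LINC02458, KITLG, which encodes the ligand of the receptor KIT, fell from 39.3 to 0.412 and DUSP6, which encodes a phosphatase of ERK kinases, fell from 25.4 to 2.48 (adjusted p 0.00391 and 0.0358, limma). They lie 429.8 and 327.6 kb away. CLIC6, 27.5 kb from LINC01426, fell from 124 to 13.2 (adjusted p 0.00642, limma), while RUNX1 on the other side had means of 4752 and 3335 (adjusted p 0.0667, and 0.00315 with the block, limma). NKD2, a gene of a Wnt pathway inhibitor 11.5 kb from LINC02982, fell from 537 to 50.7 (adjusted p 0.00877, limma). CBLB, which encodes a ubiquitin ligase, lies 967 kb from LINC00882 and fell from 569 to 71.7 (adjusted p 0.00942, limma), and BBX on the other side had a log2 difference of -0.76 (adjusted p 0.073, limma). CALB1, 126 kb from LINC00534, rose from 39.3 to 161 (adjusted p 0.0236, limma), and KIRREL1, 710.2 kb from LINC02772, rose from 13.9 to 313 (adjusted p 3.60e-04, limma). GRAMD2B, 757.9 kb from LINC02240, was listed at 0 in WT and had a mean of 17.03 in KO-labelled libraries.

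For others the nearest tested coding gene on a side, up to 4381 kb away, moved the opposite way or did not pass. LINC00261 fell while THBD, the thrombomodulin gene 467 kb away, rose from 90.1 to 461 (adjusted p 0.0125, limma). LINC01608 rose while SYBU, 1246 kb away, fell from 93.8 to 9.85 (adjusted p 0.00275, limma) and TRPS1, 4381 kb away on the other side, fell from 814 to 256 (adjusted p 0.00916, limma). LINC01036 fell while BRINP3, 2411 kb away, rose from 0.205 to 50.2 (adjusted p 0.00146, limma). LINC01287 lies 500 kb from ACTR3B, which had means of 656 and 1405 (adjusted p 0.0759, and 2.10e-04 with the block, limma). Beside LINC02404, BTG1, an antiproliferative gene, had means of 2688 and 4759 (adjusted p 0.144, and 1.44e-04 with the block, limma). LINC02700 lies between PIWIL4 and AMOTL1, with log2 differences of 0.18 and 0.08, and LINC00520 lies next to KTN1 with -0.08. None of those 3 passed without or with the block.

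**Figure D4:**
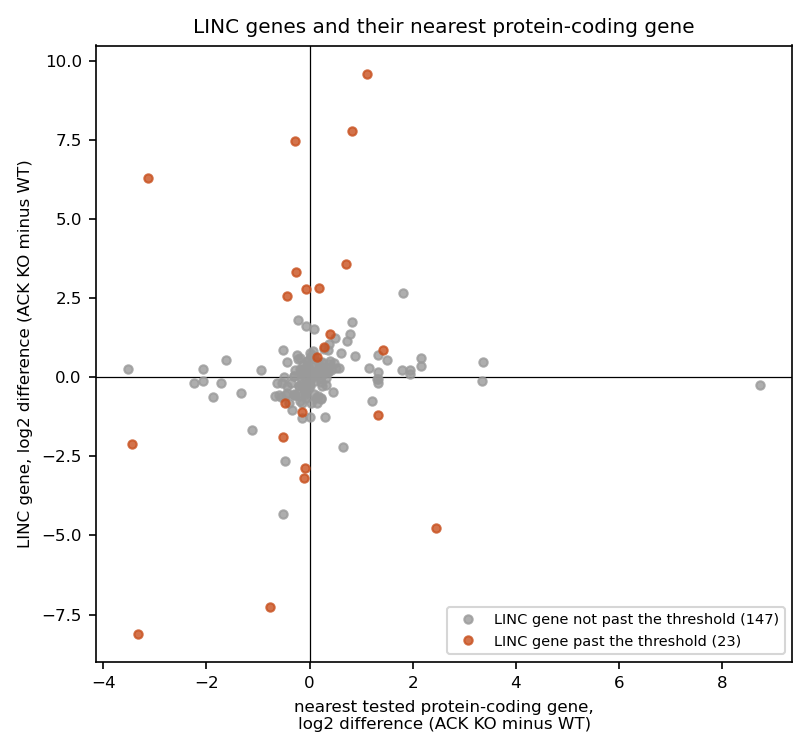
Each point is 1 of 170 LINC genes, placed by the log2 difference of its nearest tested protein-coding gene (horizontal) and by its own (vertical), KO-labelled minus WT. The 23 called genes in orange are spread along the vertical axis, 16 of them with a neighbour within 1 log2 unit of 0. The share of all coding genes within that range was not computed. The grey point at the far right is LINC02377 with PCDH10 at 8.74.

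LINC genes close to each other did not always share a direction. Among the 9 pairs within 100 kb of each other, 6 had the same sign. LINC02416 and LINC02156, 7.75 kb apart on chromosome 12 and on the same strand, both had much higher values in replicate 1, by 1.95 and 3.43 log2 units over the mean of replicates 2 and 3. LINC00526 and LINC00667 overlap on opposite strands of chromosome 18 and had log2 differences of 0.04 and 0.03.

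Position on chromosomes with a general shift went with the sign of many genes. Of 9 LINC genes on chromosome 5, 7 had a log2 difference below 0 with a median of -0.62, beside -0.64 for 528 tested protein-coding genes there. Of 15 on chromosome 7, 12 were above 0 with a median of 0.47, beside 0.39 for 596 coding genes. Chromosome 20 held 3, with LINC00261 lower and the other two above 0, beside a coding median of 0.56. LINC02240 rose on chromosome 5 and LINC00261 fell on chromosome 20, each against the sign of its chromosome, while LINC02982, LINC01287 and LINC00689 had that sign. On the other chromosomes, or without a position, 10 of 144 LINC genes rose and 8 fell. The part of these shifts in single calls was not tested.

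Other long non-coding RNAs were set beside them. Among the 243 LINC genes with a mean under 50, 126 were tested, of which 9 rose and 10 fell. LINC01357 was listed at 0 in WT and had values of 45.2, 41.3 and 31.7 in KO-labelled libraries. LINC02575, LINC02701 and LINC02335 had WT means under 1 and KO-labelled means of 51.1 ± 6.91, 38.6 ± 7.42 and 30.5 ± 10.3 (SD, n = 3 each). Adjusted p-values of the 4 ran from 4.85e-04 to 0.00214 (limma). Antisense genes had 22 rises and 26 falls among 504 tested, genes of divergent transcripts 7 and 13 among 263, small nucleolar RNA hosts 1 and 1 among 26, and microRNA hosts 0 and 3 among 33. Called shares were 13.5% for the LINC genes described, 15.1% for those under 50, 9.52% for antisense and 7.6% for divergent genes. With the block they were 48.0%, 30.2%, 28.97% and 27.0%, from 15 higher and 23 lower among LINC genes under 50, 79 and 67 among antisense genes and 26 and 45 among divergent genes. The small nucleolar RNA hosts then had 4 and 6 and the microRNA hosts 3 and 9. Median means of the tested genes were 255 for the LINC genes described, 20.5 for those under 50, 82.1 for antisense and 52.3 for divergent genes. The shares are thus of classes of unlike level. No test of the difference between classes was made.

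Of 40 well-known long non-coding RNAs listed, 35 were in the file and 33 were tested, with 4 rises and 1 fall. With the block 7 were higher and 7 lower. H19, an imprinted RNA, rose from 866 to 9301 and MEG8, of another imprinted cluster, from 1826 to 4162 (adjusted p 0.00592 and 0.00361, limma). HOTAIRM1, a myeloid transcript of the HOXA cluster, rose from 185 to 474 and UCA1, named after its value was seen, from 2193 to 4198 (adjusted p 0.0473 and 0.0480, limma). OIP5-AS1 fell from 11887 to 7915 (adjusted p 0.0207, limma). MALAT1, MEG3 and NEAT1, the most abundant, did not pass, with log2 differences of 0.12, 0.63 and -0.25. With the block MEG3, an imprinted RNA, passed (adjusted p 0.00184, against 0.332 without it, limma). Its WT values were 123521, 57540 and 62665 and its KO-labelled values 159599, 93805 and 110436, higher in each replicate number although the groups overlapped. MALAT1 and NEAT1 are nuclear RNAs. MALAT1 had 174001, 130459 and 117539 in WT and 172872, 152277 and 131356 in the KO-labelled group, so replicate 1 was its highest library in both. NEAT1 had 24196, 30191 and 35736 against 25572, 22862 and 26507, without that order.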

How the data were processed

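Gene-level values of 6 K562 libraries were used, 3 WT and 3 ACK KO, each column mapped by the library name in the labels. The authors deposited them as a signal: counts divided by a normalisation factor, not log transformed and not whole numbers, so depth is unknown. Per the submitters' processing notes, the tools were STAR 2.7.2b and Salmon 1.1.0 on GRCh38, FastQC 0.11.7, SAMtools, and, in R 3.6.1, DESeq2 1.26.0 (roles and order are not given). The lowest gene mean in the file is 3.38. The sources used here name no annotation release. Symbols came from a name table (19392 of 19498 identifiers) and positions from GENCODE 29, also GRCh38 (19112 identifiers, 9382 with the same version number).

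For 16658 genes with 10 or more in at least 3 libraries, log2(value + 1) was compared between groups by a moderated test with intensity trend (limma 3.58.1, R 4.3.3), with Benjamini-Hochberg adjustment over all of them and 0.05 as the threshold. Deviations of same-numbered libraries from their group means correlated across tested genes at 0.699, 0.521 and 0.342, each above a limit of 0.1. The replicate number was therefore treated as pairing the libraries in a second, blocked fit. Unlike numbers also passed the limit, with 0.281 for WT 2 with KO-labelled 3 and 0.257 for WT 3 with KO-labelled 2. The values thus set replicate 1 apart, but a pairing of numbers 2 and 3 is less clear. Calls with the block rest on this pairing. The numbers are those of the labels, which call the replicates biological. Alternatives were pseudocounts of 0.5 and 5, no filter, median-of-ratios rescaling, no trend, the block, and leaving out libraries.

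Named genes are the 8 most abundant LINC genes, the 10 largest rises and 10 largest falls among called genes without overlap between groups, those nearest the mean of 50, the nearest tested coding gene on each side, and up to 4 of each other list. Distances are between gene bodies. One marker gene of other cells is not reported here. Members and lists were chosen with earlier results of these data known.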

Additional observations from a re-analysis of the deposited data

How the results depend on the processing

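With the replicate block the LINC genes past the threshold numbered 82 (43 higher, 39 lower, 37 of them at least 2-fold) against 23 (13, 10 and 19) without it, those with a mean under 50 numbered 38 against 19, and all tested genes 6612 against 1721. Without replicate 1 of both genotypes the numbers were 53 (29 higher, 24 lower, 31 at least 2-fold), 29 and 4731, and 124 in place of 68 LINC genes had groups that did not overlap (72.5%, beside 66.0% of all tested genes). Leaving out each library in turn gave 13 to 29 LINC genes past the threshold, 7 to 18 higher and 6 to 11 lower, 13 to 24 at least 2-fold, 71 to 107 without overlap (41.5% to 62.6%, beside 33.7% to 53.0% of all tested genes), 9 to 20 of those under a mean of 50, 726 to 2183 of all tested genes, and 107 to 114 LINC genes with the sign of their nearest coding gene. Calls of 13 of the 23 genes held in each of these 6 fits. With a pseudocount of 0.5 or 5, no filter, median-of-ratios rescaling or no trend the count stayed between 21 and 24. LINC02772, LINC01694 and LINC00689 lost their calls without the trend (adjusted p 0.05296, 0.0651 and 0.0529, limma). The median-of-ratios factors lay between 1.009 and 1.012. The cause of the other changes was not tested. Depth is unknown, which leaves the precision of values near 0 to the spread between libraries.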
